A study of Mus musculus with 6 samples.

Results

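Rab GTPases and the coat and sorting proteins of membrane vesicles were described here as 1 family of genes in male germ cells of the mouse. Members were taken by gene name alone: symbols that start with Rab, Sec or Vps and a digit, together with the Cop symbols whose next letter is a, b, e, g or z, upper and lower case being treated alike. The deposited tables held 106 such contigs (reference transcripts to which reads were assigned) of 74 genes, among 12114 contigs in all. They lay on 18 chromosomes, and 25 of the genes had at least 2 contigs. The name brought in 3 genes whose products act elsewhere: Sec1, a fucosyltransferase relative, Rab5if, named for an interaction with Rab5, and Vps72, a subunit of chromatin remodelling complexes. They are kept in the counts and named apart where their values are given.

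Membrane proteins and secreted proteins enter the endoplasmic reticulum (ER) through the Sec61 translocon, leave it in vesicles coated by COPII, and are returned to it from the Golgi by COPI. Rab GTPases are molecular switches that mark each membrane and recruit the tethers, motors and fusion machinery of the next step, while retromer and ESCRT complexes sort cargo in endosomes, towards recycling or towards degradation. In round spermatids this traffic builds the acrosome, the secretory cap of the future sperm head, from vesicles of the Golgi and of endosomes.

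Cells of 2 kinds from wild-type adult male mice on the C57BL/6J background were compared, with 3 samples of P/D spermatocytes (meiotic cells in pachytene and diplotene) and 3 of RS (round spermatids, the haploid cells that follow meiosis). No agent or engineered allele was part of either group. Live single cells, from which those taking up propidium iodide were left out, were sorted on Hoechst fluorescence and on light scatter, which also parted RS from elongated spermatids. Both gates are enrichments, and by microscopy the paper found the P/D gate much less pure than the RS gate. A large share of the cells behind the P/D values were therefore of other types. Each sample pooled mRNA of 3 mice, and per the methods spermatocytes and spermatids were taken from the same animals, so that samples of the 2 cell types are not independent, although no source used here says that pools of the same number hold the same mice. Gene tail calls that a fit with the replicate number as a block did not make are given with that p. Native polyadenylated RNA was read through nanopores, which gives 1 poly(A) tail length per molecule. Barcoded P/D samples were sequenced as 1 library and RS samples as a further one, and a difference of cell type therefore cannot be told apart from one of library.

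Each sample held between 244004 and 474688 reads. The members took 0.541%, 0.561% and 0.577% of the reads in P/D cells and 0.480%, 0.462% and 0.455% in RS, 9934 reads in all, so most single contigs rest on few molecules: 64 of the 106 had under 20 reads in every sample. Marker genes followed the labels. Summed reads of 7 of 8 listed spermatocyte markers found ranged from 487 to 617 in P/D spermatocytes and from 263 to 400 in RS, and those of 8 round spermatid markers from 88 to 120 and from 701 to 1012. The 7 genes listed for elongating spermatids, which include protamine and transition protein genes, summed to between 456 and 586 reads in P/D cells and between 6896 and 12698 in RS. Per the paper, protamine and transition protein mRNAs are already transcribed in RS. These sums therefore cannot tell elongating cells from RS, and the part of elongating cells in the results below was not tested. Only 2 of 7 listed Sertoli cell markers were found, and they summed to at most 2 reads in any sample. The 1 of 7 Leydig cell markers found had at most 7 reads, and the 1 of 7 spermatogonial markers at most 5. With so few markers found, these values are a weak measure of such cells.

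Tails of the members were longer in RS. The median tail over all member reads was 103, 98.3 and 91.7 nt in the P/D samples against 159.9, 157 and 162 nt in the RS samples, so the groups did not overlap. Reads with a tail of 120 to 210 nt, the longer of the 2 classes used here, made up 31.96% ± 2.85 of member reads in P/D cells and 67.6% ± 2.49 in RS (SD, n = 3 each), and reads with a tail of 30 to 120 nt fell from 57.5% ± 3.72 to 22.5% ± 3.37. Over all annotated contigs the longer class rose from 29.6% ± 0.943 to 67.4% ± 0.996. When the mean tail over all reads of a gene was tested, 32 of the 56 member genes that passed the read minimum were longer in RS and 2 were shorter, where 54.9% and 2.12% of 5372 genes tested were called (limma, Benjamini-Hochberg adjusted p below 0.05). The median difference was 32.7 nt for the members and 35 nt for all genes tested. For single contigs, 30 of 64 were longer and 1 was shorter, against 54.2% and 1.69% of 6990 contigs, with median differences of 31.7 and 37.4 nt. The read minimum was 10 reads in 2 samples of 1 cell type, and 27 of the tested contigs had under 10 reads in at least 1 P/D sample.

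**Figure D1:**
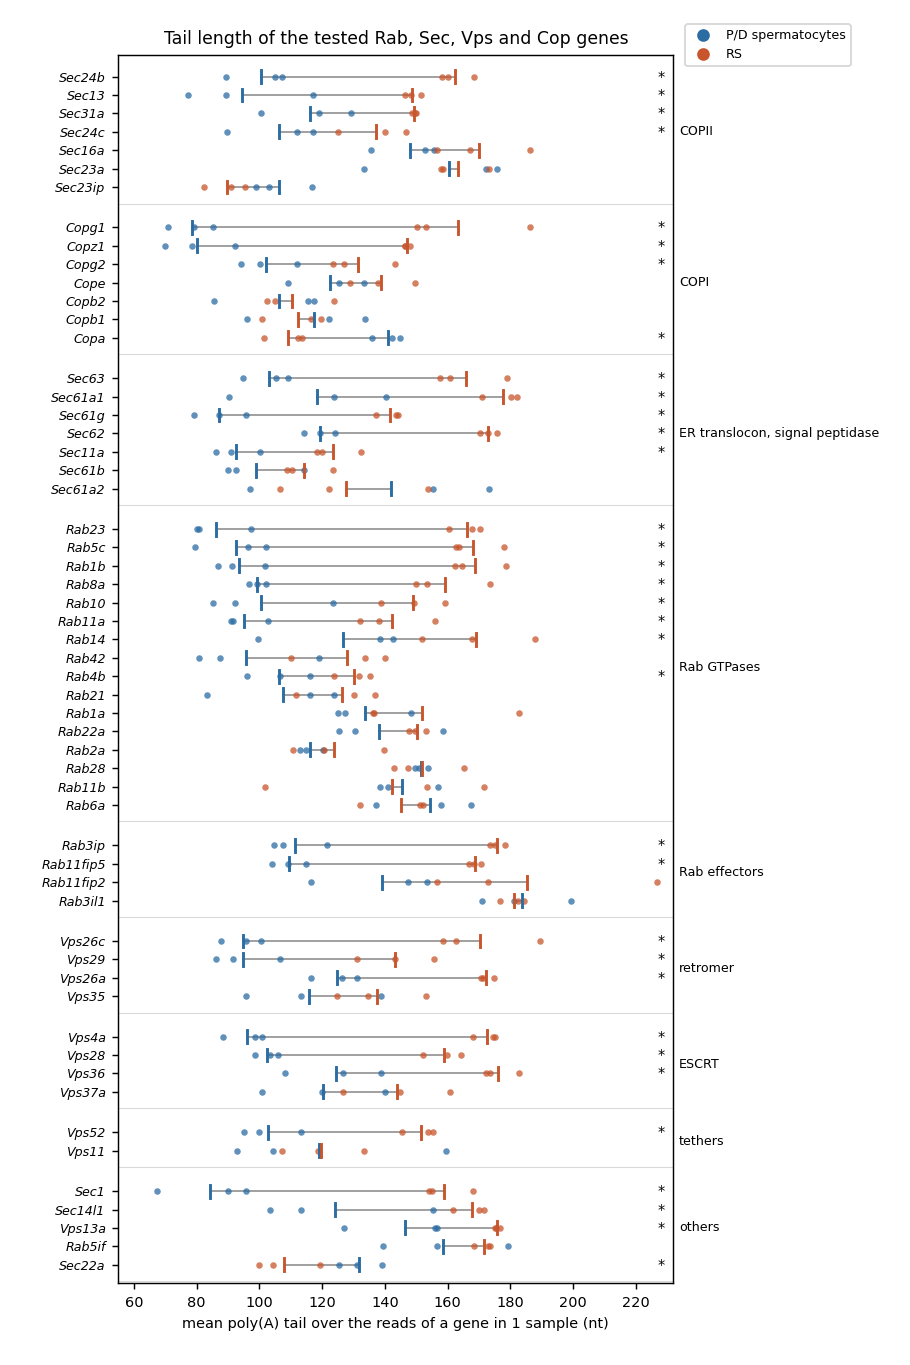
Mean poly(A) tail in nt (x axis) of the 56 tested member genes, grouped by role, with 1 point per sample, short vertical bars for the mean of each cell type and a star where limma called the difference. The RS points of most stars lie to the right of all P/D points, while Copa and Sec22a lie to the left.

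Accumulation, the number of reads of a gene relative to the sample's total, moved in both directions. Of 54 member genes tested, 9 were higher and 16 lower in RS, where 33.9% and 32.6% of 4940 genes were called (adjusted p below 0.05 by the quasi-likelihood test of edgeR, Benjamini-Hochberg). The p-values measure the spread between these samples of pooled mice. The log2 fold changes of those called lower lay between -0.71 and -2.19 and those called higher between 0.28 and 3.10. The median over the members was -0.28, against -0.03 over all genes tested. For contigs, 11 of 56 were higher and 17 lower, against 32.6% and 30.8% of 6005. DESeq2, run without the filter on counts used for edgeR, called 14 higher and 11 lower. The shares it called over all contigs were not taken, so that split cannot be set against the whole table. Gene calls that DESeq2 did not make were, besides the COPI and Sec62 calls given below, those of Vps26a (adjusted p = 0.0721), Sec61a1 (0.0967), Rab5c (0.111), Vps52 (0.126), Sec23ip (0.128), Sec22a (0.142), Rab5if (0.0568) and Sec1 (0.220). In these sorted bulk samples fewer cells of a type and less RNA per cell cannot be told apart. The 20 genes that did not pass the filter on counts had at most 22 reads in any sample. They were Rab2b, Rab5a, Rab5b, Rab8b, Rab31, Rab35, Rab3gap2, Sec11c, Sec22b, Sec23b, Sec24a, Vps4b, Vps11, Vps13b, Vps25, Vps26c, Vps37c, Vps50, Vps51 and Vps72. Of these, 18 were also outside the tail fit, and 13 of the 17 with reads in both cell types had a higher mean tail in RS. Over all genes in the tail fit, 84.3% had a higher mean tail in RS.

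**Figure D2:**
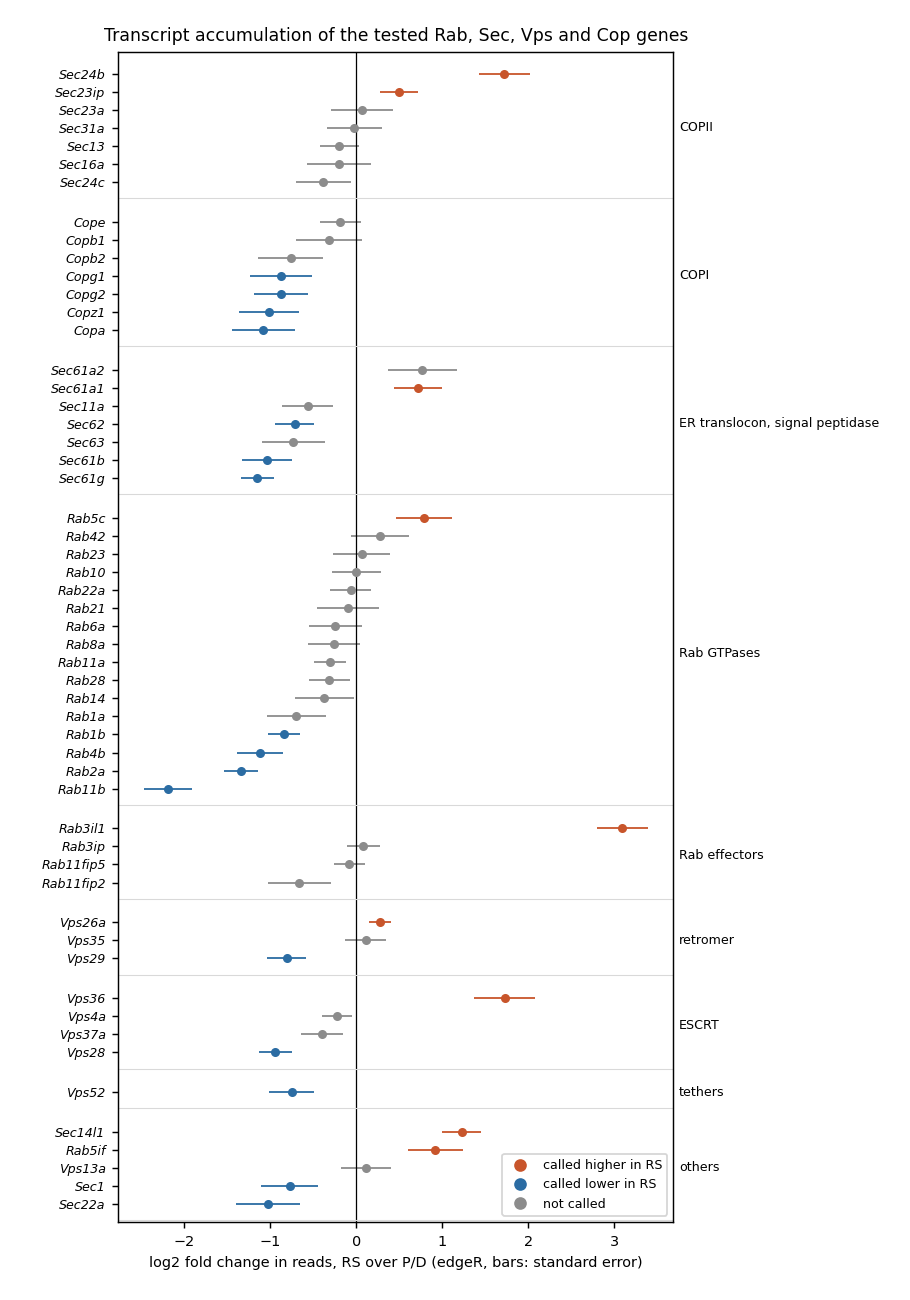
Log2 fold change in reads of RS over P/D spermatocytes (x axis, bars are standard errors) for the 54 member genes tested with edgeR, grouped by role and coloured by call. Rab3il1, Vps36, Sec24b and Sec14l1 stand farthest to the right and Rab11b and Rab2a farthest to the left, and no COPI gene lies right of 0.

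The COPI coat differed among its own subunits. The large subunits Copg1 (gamma 1) and Copg2 (gamma 2) and the small subunit Copz1 (zeta 1) had longer tails in RS, and Copa (alpha) had shorter ones, while Copb1 (beta), Copb2 (beta prime) and Cope (epsilon) were not called. Copa tails measured 145, 136 and 142 nt in the P/D samples against 112, 113 and 101 nt in RS. Every RS sample lay below every P/D sample, a difference of -32 nt (standard error 5.82, adjusted p = 0.00405, limma, sum of 2 contigs). Copg1 had 85.1, 70.9 and 79.2 nt and then 153, 150.3 and 186 nt, a gain in every RS sample over every P/D sample (difference 84.8 nt, standard error 10.9, adjusted p = 0.000964, limma). With the median tail in place of the mean the Copa difference was -21.5 nt and was not called (adjusted p = 0.237). Copz1 moved like Copg1, from 92.2, 78.7 and 69.8 nt to 147, 146 and 148 nt, without overlap (difference 66.7 nt, standard error 6.92, adjusted p = 0.000442, limma). For Copg2, tails were longer by 29.3 nt (adjusted p = 0.0200, limma), a call lost without P/D replicate 2 (0.0510) or RS replicate 3 (0.0527). Cope, which stabilises the alpha subunit, had tails of 123 nt ± 12.5 and 139 nt ± 10.4 (SD, n = 3 each), and its samples overlapped.

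All 7 COPI genes had a negative fold change, with a median log2 fold change of -0.87 against -0.03 over all genes tested. Of the 7, 4 were called lower, beside 32.6% of all genes tested. Copa had 11, 15 and 14 reads in P/D replicates and 11, 8 and 6 in RS (log2 fold change -1.08, standard error 0.36, adjusted p = 0.00762, edgeR's quasi-likelihood test). The calls of Copz1 (-1.01, adjusted p = 0.00848), Copg2 (-0.88, 0.0121) and Copg1 (-0.87, 0.0302) rested on similarly few reads. None of the 4 was called by DESeq2 (adjusted p between 0.0982 and 0.205). Each edgeR call was also lost when single samples were left out, with the adjusted p given. Copa was lost without RS replicate 2 or 3 (0.0811 and 0.0511), and Copz1 without P/D replicate 1 or 3 (0.0802 and 0.0833). Copg2 was lost without P/D replicate 2 or RS replicate 1 (0.130 and 0.0674). Copg1 was lost without any one of P/D replicates 1 and 3 and RS replicates 1 and 2 (0.164, 0.151, 0.0987 and 0.151). Arcn1, the delta subunit, which the naming rule does not take, had a log2 fold change of -0.35 and a tail difference of 10.1 nt, neither called.

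Among genes of COPII, the coat of vesicles that leave the ER, 4 of 7 tested had longer tails, beside 54.9% of all genes tested. Reads were called higher for Sec24b and Sec23ip and lower for none, beside 33.9% and 32.6% over all genes tested. Sec24b, which binds cargo in the inner layer of the coat, had 7, 13 and 8 reads in P/D cells and 30, 48 and 46 in RS. All RS samples were above all P/D samples after scaling, at 33.9 ± 7.34 and 109 ± 18.4 CPM (reads scaled to library size, SD, n = 3 each; log2 fold change of the contig 1.70, standard error 0.30, adjusted p = 3.19e-06, edgeR's quasi-likelihood test). Its tails rose from 107, 105 and 89.2 nt to 158, 160.3 and 168 nt without overlap. Sec24c, the adaptor of the other subclass, had a log2 fold change of -0.38 that was not called. Tails of Sec13 and Sec31a, which form the outer cage, were longer by 54.1 and 33.2 nt (adjusted p = 0.00566 and 0.0142, limma), and Sec24c tails by 30.9 nt (0.0346), a call lost without P/D replicate 1 (0.0626), RS replicate 1 (0.0943) or RS replicate 3 (0.102), or with the replicate block (0.0538). The inner layer GTPase activator Sec23a and the scaffold Sec16a were not called in either readout. Sec23ip, a phospholipase-like protein that binds Sec23, had 117, 103 and 98.9 nt in the P/D samples against 91.1, 82.2 and 95.4 nt in RS. Its RS samples were all below, yet the difference of -16.6 nt was not called (adjusted p = 0.0885, limma). The reads of Sec23ip were called higher (log2 fold change 0.49, adjusted p = 0.0426, edgeR's quasi-likelihood test), but not without P/D replicate 2 or 3 or RS replicate 2 or 3 (0.0691, 0.130, 0.0977 and 0.0994).

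The ER translocon and signal peptidase group had longer tails in 5 of 7 genes tested, beside 54.9% of all genes tested. In accumulation 3 fell and 1 rose, beside 32.6% lower and 33.9% higher over all genes tested. Sec61g, the small gamma subunit of the translocon, had 60, 72 and 79 reads in P/D replicates and 27, 53 and 47 in RS over its 2 contigs. Both contigs were lower, by log2 fold changes of -1.30 and -1.08 (adjusted p = 7.47e-05 and 0.000124, edgeR's quasi-likelihood test), without overlap in CPM, and the tails of the gene rose from 87.0, 95.7 and 79.1 nt to 144, 137 and 144 nt. Sec61b, the beta subunit, fell to a like degree, from 21, 33 and 21 reads to 19, 13 and 16 (log2 fold change -1.04, adjusted p = 0.00148), with no called change in tail. Sec62, an accessory channel protein, combined fewer reads (log2 fold change -0.71, adjusted p = 0.00485, edgeR's quasi-likelihood test, and 0.0812 with DESeq2) with tails that went from 119, 124 and 114 nt to 176, 173 and 170.2 nt. The tails of Sec62 did not overlap between the groups. The channel subunit itself, Sec61a1, had 29, 16 and 9 reads and 37, 47 and 35 reads (log2 fold change 0.72, adjusted p = 0.0194), a call that was lost without P/D replicate 2 or 3 or RS replicate 1 (0.112, 0.203 and 0.0528). Sec11a, a catalytic subunit of signal peptidase, had longer tails (31.1 nt, adjusted p = 0.00791, limma), as had Sec63, a partner of Sec62 (62.7 nt, 0.000857).

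Of the 22 genes for Rab GTPases themselves, 16 were tested in both readouts. Tails were longer for 8 and shorter for none, beside 54.9% longer over all genes tested, and reads were higher for 1 and lower for 4, beside 33.9% and 32.6%. The median differences were 28.1 nt and -0.28 on the log2 scale.

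Among Rabs of the ER and Golgi, Rab1b and Rab2a lost reads and only Rab1b gained tail. Rab1b, which directs transport from the ER to the Golgi, had 51, 67 and 66 reads in P/D cells and 45, 46 and 45 in RS (log2 fold change -0.84, standard error 0.19, adjusted p = 0.000115, edgeR's quasi-likelihood test). Its tails rose from 102, 91.3 and 86.9 nt to 165, 162 and 179 nt, with no overlap in either readout (difference 75.2 nt, standard error 7.05, adjusted p = 0.000336, limma). Rab2a, which acts at the Golgi and its intermediate compartment, fell more, from 50, 79 and 69 reads to 29, 46 and 29, or from 242 ± 30.7 to 90.6 ± 7.80 CPM (SD, n = 3 each; log2 fold change of the contig -1.36, adjusted p = 1.06e-07). Tails of Rab2a were not called, at 120.3, 115 and 113 nt against 139.8, 111 and 121 nt, and the samples overlapped (7.65 nt, standard error 8.42, adjusted p = 0.479, limma). Rab6a, the main Rab of the Golgi stack, was called in neither readout, and its main contig differed by 1.04 nt in tail.

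The Rabs of recycling and exocytosis held the largest fall among the member genes that passed the filter on counts. Rab11b, a recycling endosome Rab, had 37, 37 and 36 reads in P/D replicates and 6, 15 and 11 in RS. Its coding contig (chr17:33742484-33760530, minus strand) went from 25, 27 and 28 reads to 5, 10 and 5, that is from 99.2 ± 9.93 to 17.1 ± 3.63 CPM (SD, n = 3 each), and the samples stayed far apart (log2 fold change -2.42, standard error 0.33, adjusted p = 3.55e-08, edgeR's quasi-likelihood test). Rab4b, of the fast recycling route, fell from 28, 33 and 26 reads to 14, 18 and 21 without overlap in CPM (log2 fold change -1.12, adjusted p = 0.000236). Its tails rose by 24 nt (adjusted p = 0.0267, limma), a call that was lost without P/D replicate 2 or 3 or RS replicate 1 or 3 (0.0530, 0.0559, 0.0774 and 0.0814) or with the replicate block (0.0612). Rab8a and Rab10, which bring vesicles to the plasma membrane and the cilium, had no called change in reads (log2 fold changes -0.26 and 0.00) and had tails longer by 59.8 and 48.6 nt (adjusted p = 0.000894 and 0.0124, limma). Rab10 missed the threshold with the median tail (0.0994). Rab8a rose from 99.3, 96.6 and 102 nt to 154, 150.03 and 174 nt, so that its groups did not overlap. Rab14, which links Golgi and endosomes, was at the threshold for tails (42.4 nt, adjusted p = 0.0485, limma) and lost the call without P/D replicate 1 or 2 or RS replicate 1 or 2 (0.0843, 0.0582, 0.104 and 0.130), and with the replicate block (0.0601).

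Endosomal Rabs were sparse. Rab5c, of the early endosome, had tails of 96.2, 102 and 79.5 nt in P/D spermatocytes and 163, 178 and 164 nt in RS, clear of each other (75.5 nt, adjusted p = 0.000506, limma). The reads of Rab5c were 7, 15 and 8 and then 21, 26 and 22 (log2 fold change 0.79, adjusted p = 0.0295, edgeR's quasi-likelihood test), a call lost without P/D replicate 1 or 3 or RS replicate 1 (0.0921, 0.0975 and 0.0537). Rab21 and Rab22a were called in neither readout. Rab31, a relative of Rab22a, had no read in any P/D sample and 14, 22 and 10 reads in RS. Against the floor of 3 counts in each P/D sample, it was at least 3.56-fold higher in RS. It fell below the filter on counts, and without that filter its adjusted p was 3.45e-10 (edgeR's quasi-likelihood test). Rab23, a negative regulator of hedgehog signalling at the cilium, had the largest called tail difference among the Rab GTPase genes, from 97.4, 80.1 and 80.6 nt to 168, 160.3 and 170.3 nt (80.1 nt, standard error 6.86, adjusted p = 0.000279, limma), on 6 to 18 reads per sample. Both of its contigs are annotated as non-coding, a retained intron and a processed transcript, and neither passed the read minimum alone.

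**Figure D3:**
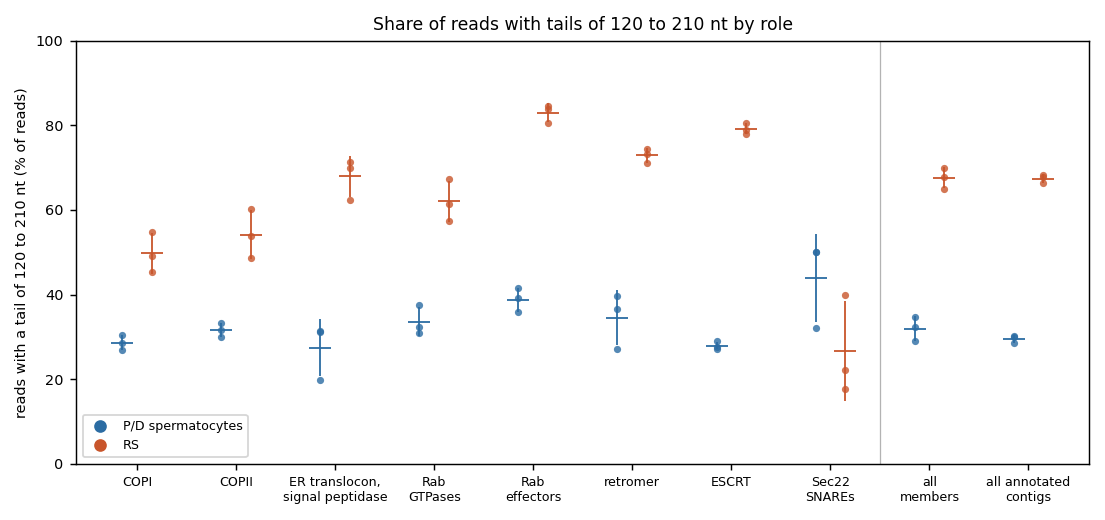
Share of reads with a tail of 120 to 210 nt (y axis, % of reads) pooled over the contigs of a role, with 1 point per sample, the mean and its SD for P/D spermatocytes and RS. Rab effectors and ESCRT reach about the 80% line in RS, COPI and COPII stay near 50%, and the sparse Sec22 pair lies lower in RS.

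Regulators of Rabs included the largest increase among the member genes that passed the filter on counts. Rab3il1, an exchange factor that activates Rab GTPases, had 4, 5 and 8 reads in P/D replicates and 61, 71 and 64 in RS over 4 contigs (log2 fold change 3.10, standard error 0.30, adjusted p = 1.05e-13, edgeR's quasi-likelihood test). The groups were far apart. Of its contigs, 2 passed the filter on counts and both were higher, by log2 fold changes of 3.37 and 2.90. Tails of Rab3il1 were already long in P/D spermatocytes, 181, 199 and 171 nt, and overlapped those in RS, 184, 177 and 182 nt. Rab3ip, the related exchange factor for Rab8, had no called change in total (44, 50 and 41 reads and 67, 72 and 51 reads, log2 fold change 0.08) and gained tail, from 107, 121 and 105 nt to 178, 174 and 175 nt (64.4 nt, standard error 6.22, adjusted p = 0.000361, limma). Rab11fip5, an effector that links Rab11 to motors, did likewise, with tails from 109, 104 and 115 nt to 168, 171 and 167 nt, a log2 fold change in reads of -0.08 and no overlap in tail. Pooled over this group, reads with tails of 120 to 210 nt rose from 38.8% ± 2.85 to 83.0% ± 2.21 (SD, n = 3 each), as the plot of tail classes by role shows.

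Retromer and its relatives had longer tails in 3 of 4 genes, beside 54.9% of all genes tested. Vps26a, the cargo-binding arrestin-like subunit and the member with most reads, had 102, 171 and 123 reads in P/D cells and 186, 274 and 180 in RS, with tails of 131, 126 and 116 nt and 175, 171 and 171 nt. These tails were well separated (47.4 nt, standard error 5.77, adjusted p = 0.000785, limma), whereas the log2 fold change of 0.28 was only just called (adjusted p = 0.0460, edgeR's quasi-likelihood test) and was lost without P/D replicate 1 or 3 or RS replicate 1 or 2 (0.154, 0.105, 0.0827 and 0.0702). Vps26c, its counterpart in the retriever complex, gained 75.6 nt (adjusted p = 0.000915, limma) on 3 to 16 reads per sample. Vps29, shared by both complexes, gained 48.6 nt and lost reads, from 30, 44 and 50 to 24, 47 and 24 (log2 fold change -0.81, adjusted p = 0.00147). The scaffold subunit Vps35 was called in neither readout, with tails of 116 nt ± 21.6 and 137 nt ± 14.3 that overlapped.

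In the ESCRT machinery, which buds vesicles into endosomes, the recycling enzyme had the largest tail gain of the 4 tested members. Vps4a, the ATPase that disassembles ESCRT-III, had tails of 101, 98.7 and 88.5 nt in the P/D samples against 174, 168 and 175 nt in RS on 45 to 85 reads a sample. No sample of one group came near the other (76.5 nt, standard error 5.72, adjusted p = 0.000246, limma), and its log2 fold change in reads was -0.23, which was not called. Vps28, of ESCRT-I, had tails longer by 56.2 nt and fewer reads, from 59, 71 and 71 to 37, 48 and 54 (log2 fold change -0.94, adjusted p = 1.55e-05, edgeR's quasi-likelihood test). Vps36, of ESCRT-II, went up from 6, 5 and 7 to 21, 40 and 20 reads (log2 fold change 1.73, adjusted p = 2.62e-05), on 1 contig described further on. Vps37a, another ESCRT-I subunit, was not called. Over the group, the share of reads with tails of 120 to 210 nt was 27.9% ± 0.929 in P/D cells against 79.2% ± 1.32 for RS (SD, n = 3 each). Over all annotated contigs it was 29.6% and 67.4%.

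Among the remaining members, Sec22a was the 1 contig called shorter. Sec22a, a relative of the ER SNARE Sec22b, had tails of 131, 139 and 125 nt in the P/D samples against 104, 99.9 and 119 nt in RS, on 15, 13 and 9 and then 8, 11 and 5 reads. All RS samples lay below the P/D samples in tail (-24 nt, standard error 7.66, adjusted p = 0.0374, limma over contigs). The call was lost with the median tail (adjusted p = 0.0981), with weights by reads (0.0760), with the methods' equal-variance test (0.0565), with the replicate block (0.0981, and 0.0859 for the gene) and without RS replicate 1 or 2 (0.107 and 0.103). Its fall in reads (log2 fold change -1.05, adjusted p = 0.0122, edgeR's quasi-likelihood test) was lost without P/D replicate 1 (0.0898) or RS replicate 3 (0.0988). Sec14l1, a lipid-binding protein of the Sec14 family, rose from 18, 19 and 27 to 54, 75 and 71 reads, with no overlap (log2 fold change 1.23, standard error 0.22, adjusted p = 3.24e-06). Its tail difference of 43.8 nt (adjusted p = 0.0364, limma) did not pass without P/D replicate 2 or 3 or any one of the RS replicates (between 0.0659 and 0.0967). Vps52, of the GARP and EARP tethers of the Golgi and endosomes, had tails longer by 48.8 nt (adjusted p = 0.00131, limma) and a log2 fold change in reads of -0.75 (adjusted p = 0.0101, and 0.0530 without RS replicate 2). Vps13a, a bridge for lipid transfer, had tails longer by 29.2 nt (adjusted p = 0.0345, limma), lost without RS replicate 1, 2 or 3 (0.0836, 0.0795 and 0.0866) and with the replicate block (0.0521). Of the genes matched by name only, Sec1 gained 74.6 nt and had a log2 fold change in reads of -0.77. Its call in reads was lost without any sample but P/D replicate 3 (adjusted p between 0.0578 and 0.155, edgeR's quasi-likelihood test). Rab5if, also matched by name only, was higher as a gene (log2 fold change 0.92, adjusted p = 0.00935). It had 11, 10 and 9 reads in P/D cells and 26, 27 and 23 in RS. Of these, 1, 1 and 1 and then 9, 14 and 11 lay on a contig annotated as a processed transcript. Its coding contig was not called in reads, so the gene call leans on the contig not annotated as coding.

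Longer tails came with more reads, fewer reads or neither. Of the 54 genes tested in both readouts, 6 were longer and higher, 11 longer and lower, and 14 longer with no called change in reads. Over the 4883 genes tested in both, these classes held 13.2%, 20.7% and 23.3%. Both member genes with shorter tails, Copa and Sec22a, were also lower. Among all shorter genes tested in both, 53 were lower, 22 higher and 28 not called in reads. Shorter and lower together held 1.09% of all genes tested in both. Sec24b and Rab1b stand for the first 2 patterns, with tail differences of 61.9 and 75.2 nt beside log2 fold changes of 1.72 and -0.84. Both readouts come from the same reads.

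Contig shares within a gene could be tested for 7 member genes, and 2 were called, Rab28 and Rab3ip, where 11.8% of 1054 genes were (edgeR's diffSpliceDGE, Benjamini-Hochberg adjusted p below 0.05). Rab28, a Rab of the cilium, changed its main contig. Its contig with a last exon of 887 bases had 17, 12 and 11 reads in P/D cells and 4, 10 and 3 in RS (log2 fold change -1.65, adjusted p = 0.000363, edgeR's quasi-likelihood test), and the one with a last exon of 112 bases had 6, 7 and 2 and then 14, 25 and 17 (1.44, adjusted p = 0.00142). The second therefore made up 26.1%, 36.8% and 15.4% of the reads on both in the P/D samples against 77.8%, 71.4% and 85% in RS, with no overlap (gene-level adjusted p = 0.00627, diffSpliceDGE). The total of Rab28 did not pass the test (log2 fold change -0.31, adjusted p = 0.245), nor did its tails (151 nt ± 2.13 and 152 nt ± 11.9, SD, n = 3 each). In GENCODE vM21, the annotation of the GRCm38 build used here, both contigs lie on the minus strand of chromosome 5 and share exons 2 to 6, and their annotated 3′ ends are 1 base apart, at 41624976 and 41624977, so the last exons differ in where they begin, at 41625862 in the long form and 41625088 in the short one. A further contig of Rab28, with an added exon of 95 bases and the same last exon of 887 bases, did not pass the filter of the share test. Over all 3 contigs the gene had 30, 30 and 27 reads in P/D cells and 22, 44 and 28 in RS. The shares given are of the 2 tested contigs, and the short form's share of all Rab28 reads was lower in every sample. The last 30 bases of both are shown because they hold the same polyadenylation signal, which is in capitals.
Rab28 long last exon: tttctcagataAATAAAtttatttaaaata
Rab28 short last exon: ttttctcagataAATAAAtttatttaaaat

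Rab3ip changed its 3′ end instead. The contig that stops at the downstream site (chr10:116905784-116950380, minus strand) had 6, 9 and 6 reads in P/D cells and 19, 34 and 17 in RS, against 38, 41 and 35 and then 48, 38 and 34 for the contig that stops at the upstream site, 116906777. Its share was 13.6%, 18% and 14.6% in the P/D samples against 28.4%, 47.2% and 33.3% in RS, all RS samples being above (gene-level adjusted p = 0.0266, diffSpliceDGE). That call was lost without P/D replicate 1, 2 or 3 (0.144, 0.0809 and 0.152) and without RS replicate 2 or 3 (0.288 and 0.0638). Tails of the downstream contig rose from 115, 131 and 88.3 nt to 179, 171 and 180.5 nt, and those of the upstream contig from 106, 119 and 107 nt to 178, 176 and 172 nt, so both contigs gained alike (65.7 and 64.3 nt). The last exon is 1335 bases in the downstream form and 342 in the upstream form, which also carries an extra exon of 96 bases. Their last 30 bases, shown with the polyadenylation signal in capitals, hold different hexamers.
Rab3ip downstream end: ttaattgcaATTAAAtataatttaattgtc
Rab3ip upstream end: aaatcaaaaccaccaAATAAAtatcagacg

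**Figure D4:**
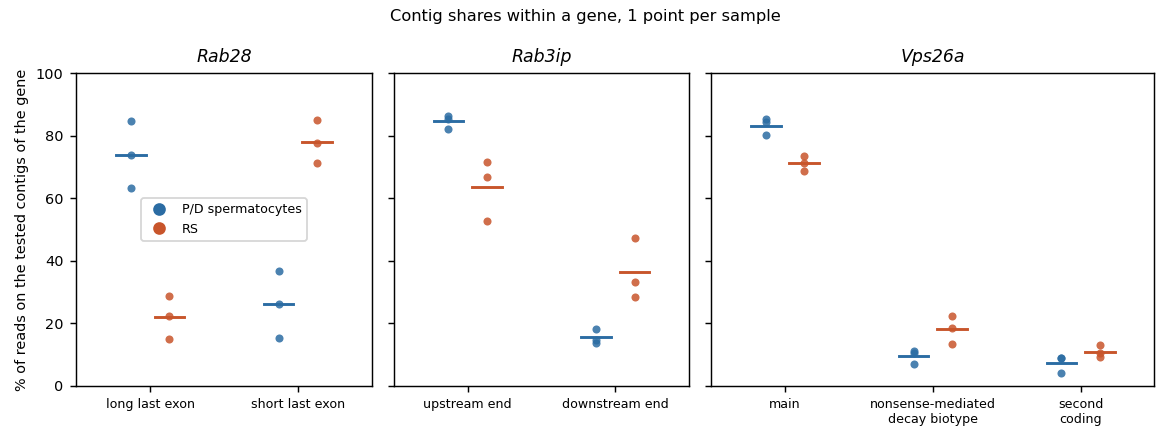
Share of each contig among the reads on the tested contigs of its gene (y axis, %), with 1 point per sample and a bar for the mean of P/D spermatocytes and RS. In Rab28 the RS points of the short last exon sit above 70% and the P/D points below 40%, in Rab3ip the downstream end rises, and in Vps26a the nonsense-mediated decay contig rises from about 10% to about 20%.

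Vps26a showed a smaller shift, to a contig annotated as a target of nonsense-mediated decay (chr10:62455272-62486732, minus strand). That contig had 7, 19 and 13 reads in P/D cells and 25, 61 and 33 in RS, and the main coding contig 86, 137 and 105 and then 137, 188 and 128. Its share was 6.86%, 11.1% and 10.6% in the P/D samples against 13.4%, 22.3% and 18.3% in RS, without overlap. The contig was called (adjusted p = 0.0485, where 6.93% of 2467 contigs were) and the gene was not (0.0740, diffSpliceDGE). Without RS replicate 1 the gene passed (0.0203), and without any other sample it did not. Reads of the decay-annotated contig had tails of 112, 130.1 and 128 nt in the P/D samples against 184, 176 and 171 nt in RS, much like those of the main contig (129, 124 and 114 nt, then 175, 169 and 173 nt). Its annotated 3′ end is at 62455272 and that of the main contig at 62455235, and the last 30 bases of both are shown with the signal in capitals.
Vps26a main: ttgtagtttaAATAAAatgactttattctc
Vps26a decay-annotated: atatataaAATAAAtaatttgaaacagaaa

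Other contigs not annotated as protein coding were among the largest increases. The increase of Vps36 was carried by a short contig annotated as a retained intron (chr8:22216993-22218632, plus strand, 528 bases), which had 2, 1 and 1 reads in P/D cells and 18, 36 and 19 in RS (log2 fold change 3.64, standard error 0.50, adjusted p = 3.19e-08, edgeR's quasi-likelihood test). The groups were far apart. The coding contig of Vps36 had 4, 4 and 6 reads in P/D replicates and 3, 4 and 1 in RS, so the call for the gene rests on the retained-intron contig. The gene-level tail difference of 51.6 nt (adjusted p = 0.00328, limma) also compares mostly coding-contig reads in P/D spermatocytes with mostly retained-intron reads in RS. Higher reads in RS were also called, below the filter on counts, for contigs of the biotype processed transcript of Sec11c (1 read in the P/D samples together and 35 in RS), Vps50 (2 and 29 reads) and Rab5if (3 and 34 reads), with adjusted p of 1.50e-06, 0.000153 and 7.92e-05 when no filter was set. The Rab11b contig of that biotype went the other way, from 30 to 12 reads (adjusted p = 0.000887 in that fit). Of the 12 member contigs with a biotype other than protein coding, 5 were thus higher and 1 lower in RS in the fit without the filter when the Vps26a contig (adjusted p = 0.000372) is counted. In that fit 32.6% of the 1624 contigs of such biotypes were higher and 9.85% lower, and 29.7% and 21.5% of all 11467 contigs. The 30 bases that end the coding and the retained-intron contig of Vps36 are shown for comparison with those above. Neither AATAAA nor ATTAAA lies in the last 40 bases of either.
Vps36 coding: aatgataaacgttcagtcacactaagccaa
Vps36 retained intron: cagtataatataaaactcttcatctctccc
Over the 105 member contigs found in GENCODE, AATAAA was in the last 40 bases of 61.9%, ATTAAA without it in 12.4% and neither in 25.7%, and over all 11344 annotated contigs found there the shares were 59.3%, 14.4% and 26.3%.

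Genes whose names differ only in the last character were set side by side in 7 pairs. The exact two-sided permutation test was used, whose smallest p with 3 samples against 3 is 0.1. For the coat subunits, the tail of Copg1 was 36.1, 17.9 and 18.7 nt below that of the main Copg2 contig in P/D samples, and 31, 32.9 and 61.7 nt above it in RS. The order of the pair turned in every sample, a change of 66.1 nt (exact permutation p = 0.1, 0.233 after Benjamini-Hochberg adjustment over the 7 pairs). Rab1a tails exceeded those of Rab1b by 46.6, 36.1 and 38.2 nt in P/D spermatocytes, and in RS they were below by 28 and 26.3 nt in replicates 1 and 2 and above by 4.11 nt in replicate 3 (change of -57.0 nt, exact permutation p = 0.1, 0.233 adjusted). The gap between Sec61a1 and Sec61a2, the other channel subunit, changed by 73.9 nt (exact permutation p = 0.1, 0.233 adjusted), though in the P/D samples it ranged from -64.9 to 26.9 nt. In reads, Rab11a over the coding contig of Rab11b had ratios of 1.96, 2.07 and 2.00 in the P/D samples against 8.20, 8.40 and 10 in RS, 2.13 apart on the log2 scale (exact permutation p = 0.1, 0.233 adjusted). Sec24b over Sec24c changed by 2.24 and Vps26a over Vps26c by 1.65 on that scale, with the same p. Copb1 and Copb2 were paired by name alone, being different subunits of the coat (beta and beta prime) and not paralogs. They did not separate in either readout. Few reads lie behind most of these pairs, and no pair passed a threshold of 0.05, which the design cannot reach.

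**Figure D5:**
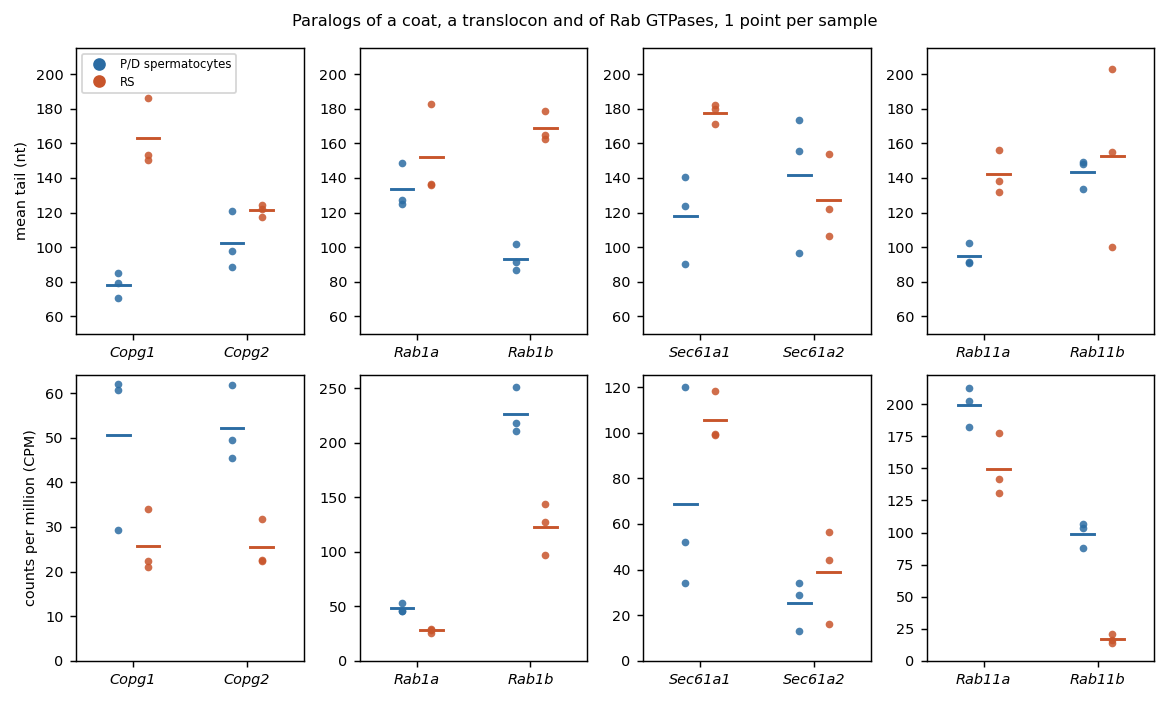
Mean tail in nt (upper row) and CPM, reads scaled to library size (lower row) of the main contigs of 4 paralog pairs, with 1 point per sample and a bar for the mean of P/D spermatocytes and RS. Copg1 and Rab1b start below their partner and end above it in mean tail, and the RS points of Rab11b lie far below its P/D points in reads.

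Promoters were read for what the members share in sequence. RefSeq windows of the GRCm38.p6 build, from 250 bases before to 50 bases after a start site, were found for 64 of the 74 genes (77 windows), and 5 motifs were searched on both strands. The palindrome of CACGTG preceded by GT and followed by AC, an element of lysosomal and autophagy genes, was in 4 of the 77 windows (5.19%), those of Rab21, Rab5a and, at both of its start sites, Vps26a, against 0.326% of 32851 windows and 0.609% of 6729 windows of the other deposited genes. TGACGTGG, the core of an element bound in the unfolded protein response of the ER, was in 3 (3.90%), those of Copb1, Copb2 and Sec23a, against 0.676% and 0.892%. TGACGTCA, the cyclic AMP response element, was in 2 (2.60%), in 1.79% of all windows and in 3.61% of those of the other deposited genes. CCAAT was in 36.4%, 37.4% and 38.9%, and GGGCGG, the GC box, in 72.7%, 35.7% and 57.7%, in the same order. The windows around these matches are given with the match in capitals and 20 bases on each side, in the direction of transcription, with the position of the match centre from the start site.
Rab21 (chr10:115315594-115315643, minus strand, centre at -27.5): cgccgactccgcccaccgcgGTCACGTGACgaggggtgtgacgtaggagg
Rab5a (chr17:53479117-53479166, plus strand, centre at -92.5): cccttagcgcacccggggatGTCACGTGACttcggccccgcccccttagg
Vps26a (chr10:62486722-62486771, minus strand, centre at -148.5): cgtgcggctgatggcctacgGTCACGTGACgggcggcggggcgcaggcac
Copb1 (chr7:114254681-114254728, minus strand, centre at -24.5): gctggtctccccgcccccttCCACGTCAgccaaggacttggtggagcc
Copb2 (chr9:98563704-98563751, plus strand, centre at -3.5): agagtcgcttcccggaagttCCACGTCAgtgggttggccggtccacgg
Sec23a (chr12:59011984-59012031, minus strand, centre at 9.5): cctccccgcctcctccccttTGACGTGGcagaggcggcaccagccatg
The 3 coat genes with TGACGTGG were also called in neither readout: their gene tails differed by -5.04, 4.40 and 2.88 nt and their reads by -0.32, -0.76 and 0.07 on the log2 scale. Rab21 was not called, Rab5a had at most 7 reads in a sample, and Vps26a is described above. A match of letters is a description of these windows.

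Genes that work with the members but carry other names were counted from lists by function, beside 54.9% longer and 2.12% shorter in tail, and 33.9% higher and 32.6% lower in reads, over all genes tested. Of ESCRT partners, 10 of 12 tested had longer tails in RS, 1 was higher and 7 lower in reads, with a median tail difference of 63.3 nt. Hgs, which starts ESCRT sorting, went from 82.8 to 166 nt (83.0 nt). Of SNAREs, the fusion proteins, 15 of 21 were longer, 1 of 20 higher and 8 lower. Stx8, of endosomes, gained 63.4 nt, and Use1, of the ER, gained 61.3 nt with a log2 fold change of -0.52. Clathrin and its adaptors had 12 of 16 longer, and of 15 tested for reads 5 were higher and 7 lower. Ap2b1, of the plasma membrane adaptor, rose (log2 fold change 0.70) and Ap1m1, of the Golgi adaptor, fell (-0.54), both with longer tails (57.8 and 66.2 nt). COPII partners and p24 cargo receptors had 9 of 13 longer, 2 of 12 higher and 4 lower. Sar1a, the GTPase that starts the COPII coat, rose (0.63) and the cargo receptor Tmed4 fell (-1.21).

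Read against the same shares, of COPI partners 1 of 12 tested was higher and 1 lower in reads, and 6 of 13 had longer tails. Arf1, the GTPase that recruits COPI, had a tail difference of 18.3 nt and a log2 fold change of -0.40, neither called, and its exchange factor Gbf1 gained 54.9 nt. Of Rab cycle genes with other names, 6 of 8 were longer and 4 of 7 higher, with Gdi2, which extracts Rabs from membranes, at a log2 fold change of 0.78 and a tail difference of 66.5 nt. Exocyst and TRAPP tethers had 8 of 12 longer, 2 of 10 higher and 5 lower, with Trappc4 falling by 2.03 on the log2 scale. Golgins and COG tethers had 9 of 11 longer and 1 shorter, Cog6, which went from 144 to 115 nt (adjusted p = 0.0195, limma). Becn1, the only gene of the Vps34 kinase list in the tables, was lower (-0.57) with a tail difference of 17.9 nt that was not called.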

How the data were processed

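Read counts per contig and a tail length in nt for each read were taken from the deposited tables of wild-type P/D spermatocytes and RS. Per the labels and the methods, the authors basecalled direct RNA reads with Guppy, demultiplexed them with Deeplexicon, aligned them with minimap2 (2.20-r1061 in the submitters' processing notes) to transcripts and repeats, and estimated tails with Nanopolish. The counts were raw, 1 per read and contig. Differences in library loading and in the detection of short tails could alter both readouts.

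Mean tails per contig or gene and sample were compared with limma 3.58.1, without covariates, where at least 10 reads were present in 2 samples of 1 cell type. Counts were compared with edgeR 4.0.16 (TMM scaling, filterByExpr, quasi-likelihood test), and contig shares with diffSpliceDGE. All fits covered the whole table, with Benjamini-Hochberg adjustment and a threshold of 0.05. Gene pairs with names alike but for the last character were compared by exact permutation. R 4.3.3 and Python 3.11.15 were used. The limma, edgeR and diffSpliceDGE fits, but not DESeq2, were run on simulated data. Changes in tail and in counts were planted there in contigs with more reads than most members had. The simulation therefore does not speak for sparse members. Positions and 3′ ends came from GENCODE vM21, in which 105 of the 106 contigs were found. No protein sequences were used here.

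Members, gene lists and tests were chosen with earlier results of these data known. Genes named were those with 100 reads in a sample, the 8 largest called increases and decreases in reads, the 6 largest tail increases with 10 reads in every sample, tails called shorter, calls of contig share and up to 4 most-read genes of each partner list, and other genes were named after their values were seen. Alternatives were DESeq2 1.42.0, other filters, median or trimmed tails, weights by reads, the methods' equal-variance test, a replicate block and each sample left out.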

Additional observations from a re-analysis of the deposited data

How the results depend on the processing

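With a minimum of 20 reads in every sample, 9 of 13 contigs tested were longer in RS. No contig was shorter (0) under the methods' equal-variance test, with the median tail, with reads required in both cell types or with the replicate block. For genes, 1 was shorter with the median tail and 1 with the block. With 10 counts in every sample, 2 contigs were higher and 11 lower of 29 tested. With no filter 18 were higher and 27 lower, beside 29.7% and 21.5% of all 11467 contigs. DESeq2 called 11 contigs and 9 genes lower. For the other alternatives in this section, shares over all contigs or genes were not taken. Their counts therefore cannot be set against the whole table. The rise in the share of reads with tails of 120 to 210 nt, 35.6 percentage points, was 23.2 points for 120 to 180 nt and 26.5 points with contigs weighted equally. The causes were not tested. Leaving out 1 sample at a time gave 27 to 33 longer and 0 to 2 shorter contigs. For genes it gave 27 to 33 longer and 1 to 2 shorter. In reads, 11 to 13 contigs were then higher and 16 to 21 lower, and 6 to 9 genes higher and 14 to 17 lower. For contig share, 1 to 3 genes were called. Of the calls, 25 of 34 for gene tails and 12 of 25 for gene reads were kept wherever tested.

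Replicate numbers recur in both cell types, and per the methods both types came from the same animals, but no source used here ties same-numbered pools to the same 3 mice, and the correlation of same-numbered deviations was 0.0286, 0.236 and 0.0684 for reads and -0.0106, 0.0771 and 0.0157 for tails for replicates 1, 2 and 3, so that a pairing by number was not shown. With the replicate block, 29 contigs were longer and 0 shorter, 11 higher and 18 lower, 28 genes were longer and 1 shorter, 9 higher and 16 lower, and 2 were called for contig share. Gene tail calls not made with the block were those of Rab14, Rab4b, Sec24c, Vps13a and Sec22a, with the values given beside them, and every gene call in reads was made with it too.

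Depth is a limit of these results: with 64 of 106 contigs under 20 reads in every sample, a gene that was not called may still differ.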
